A study of Mus musculus with 15 samples.

Results

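The transmembrane channel-like (TMC) genes of the mouse were read out in RNA sequencing of adult neural stem cell cultures, and Tmc3, the member that separated 4-OHT-treated from untreated cultures, was followed in every library. The members were taken by name: the Ensembl identifiers of the count table were matched to mouse symbols, and all 8 genes from Tmc1 to Tmc8 were found among its 53801 genes. Tmc3 was chosen by its measured difference between 4-hydroxytamoxifen (4-OHT) and untreated Fl/+ libraries of this same table, so the 4-OHT values below are given as a description with no test.

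TMC proteins are multi-pass membrane proteins. Tmc1 and Tmc2 form the pore of the mechanotransduction channel of inner ear hair cells, where they work with tip-link cadherins and small accessory proteins. Tmc6 and Tmc8, also called EVER1 and EVER2, bind Cib1 and the zinc transporter Slc30a1 and are known from human skin disease and from lymphocytes. The TMEM16 and TMEM63 proteins are related membrane channels and scramblases. Much less is known of Tmc3, Tmc4, Tmc5 and Tmc7 in brain cells.

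The cultures were set up from subventricular zone tissue (mice of 2 months, C57BL6/J-129sv background) and grew in suspension with EGF and bFGF. Every mouse carried Rosa26-CreERT2, which expresses a tamoxifen-inducible Cre from a ubiquitous locus, and a floxed allele of Trrap, a scaffold subunit shared by histone acetyltransferase complexes. There were 3 groups of 5 libraries: untreated Fl/+ cultures (mice 19, 24, 26, 35 and 36), Fl/+ cultures of the same 5 mice given 4-OHT, and Fl/Fl cultures (mice 27, 28, 29, 37 and 39) given 4-OHT. The labels put the treatment at 5 days, while the methods describe a shorter exposure and then fresh medium. By design, 4-OHT is meant to delete 1 Trrap allele in the Fl/+ cultures and both in the Fl/Fl cultures. The exposure to 4-OHT, the active Cre and any loss of 1 allele cannot be told apart in the Fl/+ pair. No untreated Fl/Fl cultures were analysed here.

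The libraries held 25720034 to 32187097 counts each. Trrap itself stood at 190 ± 14.3 CPM (counts per 1000000 counts of the scaled library; SD, n = 5) in untreated Fl/+, 164 ± 26.4 in Fl/+ 4-OHT and 104 ± 24.2 in Fl/Fl 4-OHT, and was lower in Fl/Fl than in Fl/+ 4-OHT (edgeR quasi-likelihood test, adjusted p = 0.0115), with an overlap made by Fl/Fl mouse 29 at 142 CPM. It was not called in the Fl/+ pair (log2 fold change -0.21, SE 0.110, adjusted p = 0.234), nor in the same test with the mouse as a block (-0.22, SE 0.0832, adjusted p = 0.0838). In each Fl/+ mouse Trrap was lower in the 4-OHT than in the untreated culture. These counts run over the whole gene and do not single out the floxed exons. All 10 neural stem cell markers averaged at least 1 CPM in each group. Sex-linked genes went against the labels in 3 libraries: the Fl/Fl 4-OHT library of mouse 39, labelled female, had 1556 counts of Ddx3y and 9 of Xist, and the Fl/+ libraries of mouse 36, labelled male, had 160 (untreated) and 2117 (4-OHT) counts of Xist beside 1295 and 1500 of Ddx3y. Each tested member is therefore also given without these 3 libraries.

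The members sit on 4 chromosomes of GRCm38. Tmc3 spans chr7:83584927-83625614 on the plus strand. Tmc4 (chr7:3665790-3677553, minus strand), Tmc7 (chr7:118535841-118584736, minus strand) and Tmc5 (chr7:118597297-118675086, plus strand) are on the same chromosome, with 12.561 kb between Tmc7 and Tmc5. Tmc6 (chr11:117765988-117782198, minus strand) and Tmc8 (chr11:117782076-117793110, plus strand) lie head to head and share 123 bases. The counts were made by strand, so that reads of the shared bases are assigned by their strand.

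The sequence before the start of Tmc3, Tmc6 and Tmc7 is shown, since Tmc3 had the widest range of levels and the other two changed between the treated groups. Tmc8, called in 1 comparison on few counts, is not shown. RefSeq promoters (GRCm38.p6, 300 bases around the start) were matched for 6 of the 8 members. The bases shown lie before the RefSeq start and outside every annotated exon. Capitals mark GGGCGG (the GC box) on either strand, and likewise the core ACGTG, the E-box spelled CACGTG and the motif named CCAAT, the last of which was added after the sequences were seen.
Tmc3, chr7:83584681-83584926, plus strand: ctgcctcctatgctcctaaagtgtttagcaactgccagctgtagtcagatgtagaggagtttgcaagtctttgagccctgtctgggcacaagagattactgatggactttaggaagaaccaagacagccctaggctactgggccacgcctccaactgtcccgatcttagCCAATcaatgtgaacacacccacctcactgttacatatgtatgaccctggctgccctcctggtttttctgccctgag
Tmc6, chr11:117780693-117780909, minus strand: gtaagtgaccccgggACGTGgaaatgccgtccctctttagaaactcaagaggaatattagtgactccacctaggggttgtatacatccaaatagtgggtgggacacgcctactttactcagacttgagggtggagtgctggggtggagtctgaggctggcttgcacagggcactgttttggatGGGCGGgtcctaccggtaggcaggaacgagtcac
Tmc7, chr7:118584737-118584936, minus strand: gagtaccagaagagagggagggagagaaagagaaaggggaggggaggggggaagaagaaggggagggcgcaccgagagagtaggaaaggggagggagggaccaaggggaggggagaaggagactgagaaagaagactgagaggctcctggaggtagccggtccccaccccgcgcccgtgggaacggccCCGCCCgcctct

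The Tmc3 stretch holds a CCAAT and no match to the other motifs, and its G and C content is 50.8%. The Tmc7 stretch is richer in G and C, at 65.0%, with 1 GC box, and the Tmc6 stretch, at 54.4%, holds a GC box and an ACGTG. Over the whole 300-base windows, GGGCGG or its complement was found in Tmc4, Tmc6 and Tmc7, against 35.7% of the 32851 RefSeq promoters. CACGTG was found in Tmc6 and Tmc8, against 7.15% of all promoters, and ACGTG, which every CACGTG contains on both strands, in the same pair, against 19.6%. CCAAT was found in Tmc1, Tmc3 and Tmc4, against 37.4%. A match of letters is a description and not a bound site, and the Tmc6 stretch lies inside the longest Ensembl model of that gene.

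The hair cell members were not expressed at this depth. Tmc2 had 0 counts in all 15 libraries, where 3 counts, taken as the upper limit that a count of 0 allows, would be 0.0932 to 0.119 CPM depending on the library. Tmc1 had 1 count in the untreated libraries of mice 19 and 26 and 0 in the other 13. Neither could be tested. The hair cell factor Atoh1 also had 0 counts in every library. Of the other listed hair cell markers, Pou4f3 and Otof had at most 2 and 3 counts in a library. Myo7a, however, averaged 7.51, 7.87 and 13.5 CPM in untreated Fl/+, Fl/+ 4-OHT and Fl/Fl 4-OHT cultures. Slc17a8 averaged 1.16, 0.179 and 0.717 CPM in the same order.

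The other 6 members were ordered by level per length, that is CPM per kb of annotated exon, the scale on which genes can be compared. In untreated Fl/+ cultures Tmc6 (3.88 ± 0.645 CPM per kb; SD, n = 5) and Tmc7 (3.35 ± 0.593) led, and their libraries overlapped. Tmc4 followed at 0.888 ± 0.239. Tmc8 (0.0688 ± 0.0341), Tmc3 (0.0630 ± 0.0345) and Tmc5 (0.0605 ± 0.0399) were lowest and did not differ beyond their spread. In this group 37.8% of 21890 protein-coding genes had a lower mean level per kb than Tmc3.

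In Fl/+ 4-OHT cultures the level of Tmc3 per length was 4.27 ± 1.47 CPM per kb, next to Tmc6 at 4.48 ± 0.959 and Tmc7 at 3.55 ± 0.273, and its libraries overlapped those of both, while every Tmc6 library was above every Tmc7 library. In Fl/Fl 4-OHT cultures Tmc6 stood at 7.07 ± 0.569 and Tmc3 at 6.82 ± 2.61 CPM per kb, again overlapping, with Tmc7 lower at 2.63 ± 0.205. Tmc4 came after these by its mean in both groups (1.19 ± 0.113 and 1.59 ± 0.790), and Tmc8 and Tmc5 stayed under 0.25 CPM per kb in every library. In Fl/Fl mouse 29, however, Tmc4 reached 2.94 CPM per kb. This was above every Tmc7 library of that group and above Tmc3 in mouse 27 (2.86). The share of protein-coding genes with a lower level per kb than Tmc3 was 62.8% and 70.2% in these groups.

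Tmc3 was near the limit of detection before treatment. The untreated Fl/+ libraries of mice 19, 24, 26, 35 and 36 held 26, 9, 25, 10 and 9 counts of Tmc3, which is 0.941, 0.314, 0.874, 0.385 and 0.331 CPM. After 4-OHT the cultures of the same mice held 1678, 825, 723, 1383 and 945 counts, or 56.7, 26.1, 28.6, 47.9 and 33.3 CPM. The groups did not overlap, and the lowest treated library was far above the highest untreated one.

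**Figure D1:**
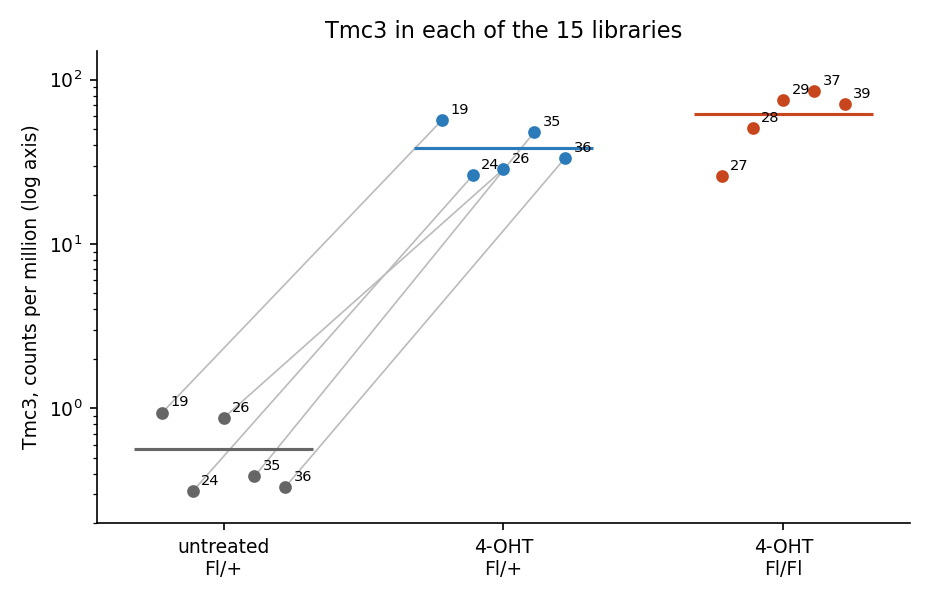
Tmc3 level in each of the 15 libraries in CPM on a log axis, by group, with the mouse number beside each point, the group mean as a horizontal line and grey lines joining the untreated and 4-OHT cultures of the same Fl/+ mouse. The untreated libraries lie between 0.314 and 0.941 CPM and the 10 treated libraries between 25.8 and 85.2 CPM.

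Within each mouse, Tmc3 was higher in the treated than in the untreated culture by 60.3-fold in mouse 19, 83.2-fold in mouse 24, 32.7-fold in mouse 26, 125-fold in mouse 35 and 101-fold in mouse 36. Mouse 26 had the lowest ratio, with one of the higher untreated levels. The mean paired difference was 5.17 on the log2(CPM + 0.5) scale (SD 0.506, range 4.40 to 5.77) and was positive in 5 of 5 mice. This scale understates the ratio of a gene so low before treatment. With 0.1 CPM as the added constant the mean paired difference was 5.91. The fitted log2 fold change was 6.07 (SE 0.382), and 6.07 (SE 0.253) with the mouse as a block, which is 67.1-fold in the fit without it. It was 5.97 with the mismatched mouse 36 left out.

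The Fl/Fl 4-OHT cultures of mice 27, 28, 29, 37 and 39 held 832, 1491, 2296, 2203 and 2038 counts of Tmc3, or 25.8, 50.7, 75.2, 85.2 and 70.8 CPM. Mouse 27 was just below the lowest Fl/+ 4-OHT library, while mice 29, 37 and 39 were above all of them. The 2 treated groups overlapped. Tmc3 was not called between Fl/Fl and Fl/+ 4-OHT cultures (log2 fold change 0.69, SE 0.306, edgeR quasi-likelihood adjusted p = 0.108; exact two-sided permutation p = 0.135). This result rests on 1 library: without Fl/Fl mouse 27 the log2 fold change was 0.88 with an adjusted p of 0.0208. Without the 3 libraries whose sex-linked genes went against their labels it was 0.58 (adjusted p = 0.285).

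Against untreated Fl/+ cultures, Tmc3 was higher in Fl/Fl 4-OHT cultures by 6.75 on the log2 scale (SE 0.435, 108-fold, edgeR adjusted p = 1.09e-05), with all 5 libraries above all 5. The exact permutation p of 0.00794 is the smallest that 5 against 5 can give. The value was 6.56 without the libraries of doubtful sex label (adjusted p = 0.000181). This comparison shares the untreated libraries with the contrast by which Tmc3 was picked, so neither its size nor its p is independent of that choice. With 9 to 26 counts in the untreated libraries, Tmc3 also passed the filter through the treated group. Genotype and treatment differ together in this comparison. The comparison between the treated groups shares the Fl/+ 4-OHT libraries with that contrast and is not independent of the choice either.

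**Figure D2:**
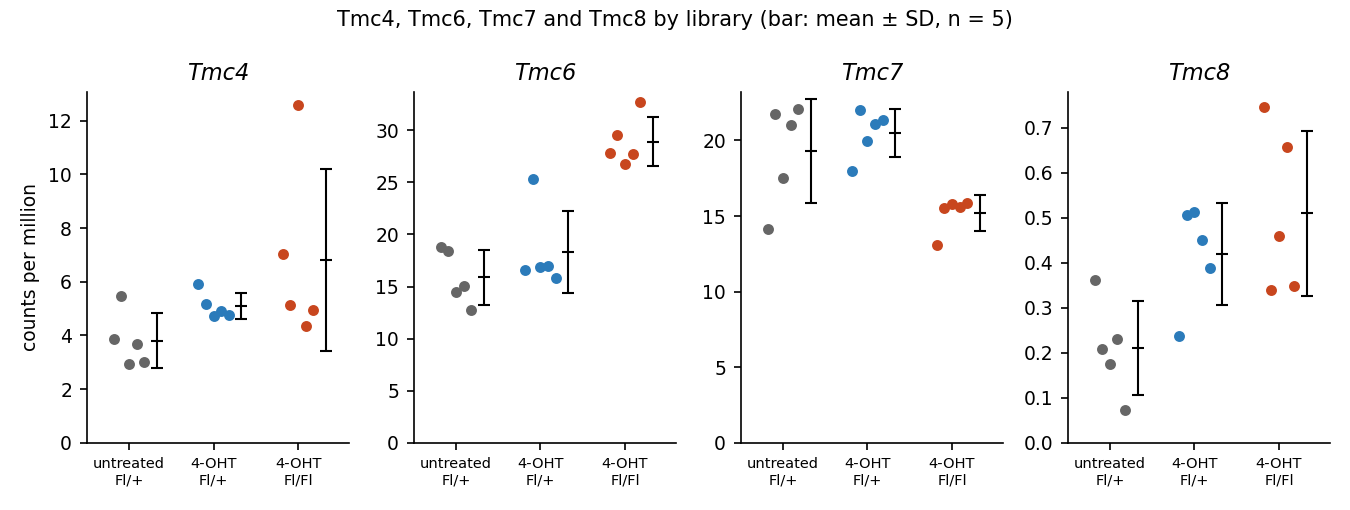
Levels of Tmc4, Tmc6, Tmc7 and Tmc8 in each library in CPM on linear axes starting at 0, by group, with the mean ± SD (n = 5) beside the points. All 5 Fl/Fl 4-OHT libraries lie above the other 10 for Tmc6 and below the 5 Fl/+ 4-OHT libraries for Tmc7, and 1 Fl/Fl library stands apart for Tmc4 at 12.6 CPM.

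Of the 5 members tested between Fl/Fl and Fl/+ 4-OHT cultures, Tmc6 rose, Tmc7 fell and Tmc3, Tmc4 and Tmc8 were not called. Of all 15036 genes tested, 31.7% were called, 16.8% higher and 15% lower, so 2 of 5 is near the share of all genes. The 2 called members did not overlap between the groups, as held for 22.6% of all genes. The median log2 fold change of the 5 was 0.44, and that of all genes 0.02.

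Tmc6, the EVER1 gene, was at 18.8, 18.5, 14.4, 15.0 and 12.7 CPM in the untreated libraries of mice 19, 24, 26, 35 and 36. The Fl/+ 4-OHT libraries of these mice were at 16.6, 25.3, 16.9, 17.0 and 15.8 CPM, with mouse 24 apart from the rest. The Fl/Fl 4-OHT libraries of mice 27, 28, 29, 37 and 39 were at 27.8, 29.6, 26.8, 27.7 and 32.7 CPM. All Fl/Fl libraries were above every Fl/+ library of either kind. The means were 15.9 ± 2.64, 18.3 ± 3.92 and 28.9 ± 2.33 CPM (SD, n = 5).

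Tmc6 was higher in Fl/Fl than in Fl/+ 4-OHT cultures by 0.67 on the log2 scale (SE 0.133, edgeR adjusted p = 0.00366; exact permutation p = 0.00794), a fold of 1.59. It was higher than in untreated cultures by 0.88 (SE 0.126, adjusted p = 0.000640). With the libraries of doubtful sex label left out the values were 0.56 (adjusted p = 0.0243) and 0.76 (adjusted p = 0.00328). It was 0.21 in the Fl/+ pair (SE 0.164), with 4 of 5 mice higher after 4-OHT.

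Tmc8, the EVER2 gene that faces Tmc6, was low throughout. It had 10, 6, 5, 6 and 2 counts in the untreated libraries, 7, 16, 13, 13 and 11 in the Fl/+ 4-OHT libraries and 24, 10, 14, 17 and 10 in the Fl/Fl libraries, in the mouse order above. The means were 0.210 ± 0.104, 0.419 ± 0.114 and 0.510 ± 0.184 CPM. Tmc8 was not called between the treated groups (log2 fold change 0.30, SE 0.311, edgeR adjusted p = 0.495). It was called higher in Fl/Fl 4-OHT than in untreated cultures (1.28, SE 0.393, adjusted p = 0.0294; exact permutation p = 0.0238). At these counts the call was fragile. A single untreated library reached 10 counts, so the gene passed the minimum of 10 counts through the group in which it was higher, and the call was lost without any of 4 single libraries (untreated mice 24 and 26, Fl/Fl mice 27 and 37; adjusted p from 0.0545 to 0.0750). With the libraries of doubtful sex label left out it was 1.18 (adjusted p = 0.0453), and 0.37 between the treated groups (adjusted p = 0.485). The log2 fold change in the Fl/+ pair was 0.98 (SE 0.376), with 4 of 5 mice higher after 4-OHT.

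The proteins of Tmc6 and Tmc8 work with Cib1, Slc30a1 and the death-domain adaptor Tradd, all 3 of which were tested. Their median log2 fold change was -0.10 between the treated groups, -0.30 in the Fl/+ pair and -0.26 between Fl/Fl 4-OHT and untreated cultures. Cib1, an integrin- and EVER-binding protein, stood at 35.4 to 41.2 CPM in Fl/Fl 4-OHT against 27.7 to 32.1 in Fl/+ 4-OHT libraries and rose by 0.42 on the log2 scale (SE 0.0729, adjusted p = 0.00179). It was at 29.8 to 42.8 CPM in untreated libraries and was not called against them (0.11, adjusted p = 0.442). Slc30a1, the zinc exporter ZnT1, was lower than in untreated cultures in Fl/+ 4-OHT (log2 fold change -0.39, adjusted p = 0.0182) and in Fl/Fl 4-OHT (-0.49, adjusted p = 0.00119). Tradd was not called in the 3 comparisons (adjusted p from 0.415 to 0.746).

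Tmc7 ran the other way. It had 391, 624, 500, 547 and 600 counts in the untreated libraries (14.1 to 22.1 CPM), 532, 695, 506, 609 and 605 in the Fl/+ 4-OHT libraries (17.98 to 22.001 CPM) and 421, 457, 482, 404 and 457 in the Fl/Fl 4-OHT libraries (13.1 to 15.9 CPM). The group means were 19.3 ± 3.42, 20.5 ± 1.58 and 15.2 ± 1.18 CPM. All Fl/Fl libraries were below all Fl/+ 4-OHT libraries, while the untreated library of mouse 19 fell among them. The log2 fold change between the treated groups was -0.42 (SE 0.0921, edgeR adjusted p = 0.00605; exact permutation p = 0.00794). It was -0.43 without the libraries of doubtful sex label (adjusted p = 0.0250). Against untreated cultures it was -0.33 (SE 0.139, adjusted p = 0.0899; exact permutation p = 0.0556) and not called, and without the untreated library of mouse 19 it was -0.43 with an adjusted p of 0.0200. With the libraries of doubtful sex label left out it was -0.29 (adjusted p = 0.198). It was 0.09 in the Fl/+ pair (SE 0.136). Tmc5, the neighbour of Tmc7, had 1 to 16 counts in the 15 libraries and was tested against untreated cultures alone (0.07, SE 0.512, adjusted p = 0.935; 0.00 and 0.997 with those libraries left out).

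Tmc4 was at 3.87, 5.48, 2.94, 3.69 and 3.02 CPM in the untreated libraries and at 5.91, 5.16, 4.74, 4.92 and 4.76 CPM in the Fl/+ 4-OHT libraries. The Fl/Fl 4-OHT libraries were at 7.02, 5.13, 12.6, 4.37 and 4.93 CPM, with mouse 29 well above the rest. Tmc4 was not called between the treated groups (log2 fold change 0.44, SE 0.274, edgeR adjusted p = 0.248), nor against untreated cultures (0.86, SE 0.311, adjusted p = 0.0560; exact permutation p = 0.0317). The latter was called without the untreated library of mouse 24 (1.02, adjusted p = 0.0376) or without Fl/Fl mouse 37 (0.98, adjusted p = 0.0397). Without Fl/Fl mouse 29 the values for the 2 comparisons were 0.07 and 0.51, and with the libraries of doubtful sex label left out 0.49 (adjusted p = 0.278) and 0.88 (adjusted p = 0.0922). In the Fl/+ pair the log2 fold change was 0.43 (SE 0.192), and 4 of 5 mice were higher after 4-OHT.

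Of the 6 members tested between Fl/Fl 4-OHT and untreated cultures, Tmc3, Tmc6 and Tmc8 were called higher, none was called lower, and Tmc4, Tmc5 and Tmc7 were not called. Of all 15032 genes tested, 30.7% were called, 15.7% higher and 15.1% lower. The groups did not overlap for Tmc3 and Tmc6, as held for 23.1% of all genes. Nothing is read from this count, since the untreated values of Tmc3 took part in its choice and Tmc8 passed the filter through the group in which it was higher. Tmc6 is the one call free of both. Over all 14821 genes tested in the Fl/+ pair, 13.8% were called (7.34% higher and 6.45% lower), and for 12% the groups did not overlap. No calls are given for the members there, since that contrast was used to pick Tmc3.

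**Figure D3:**
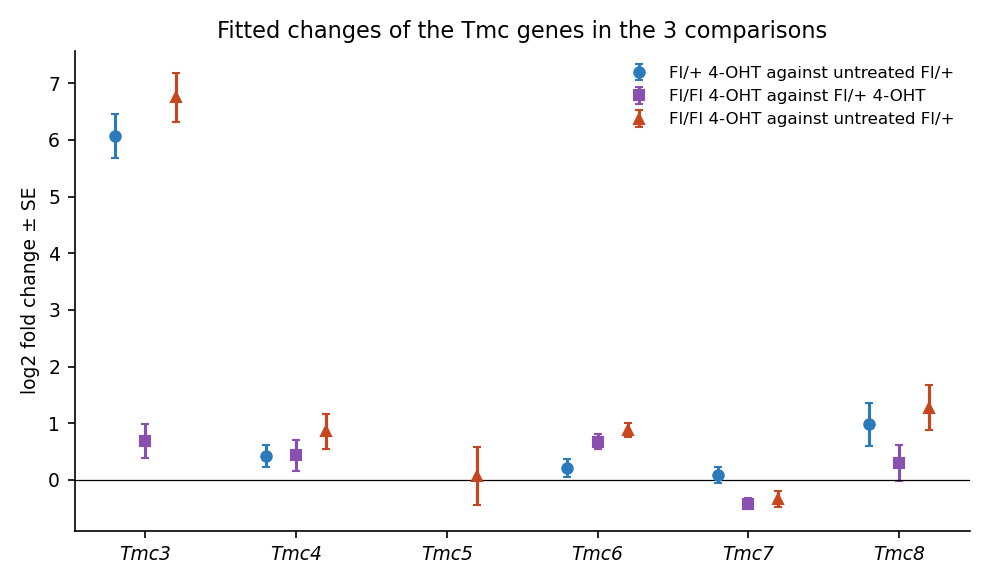
Fitted log2 fold change ± SE of each tested Tmc gene in the 3 comparisons of 5 against 5 libraries; Tmc5 passed the filter on low counts in 1 of them, and the values of the Fl/+ pair are a description. Tmc3 stands at 6.07 and 6.75 in the comparisons with untreated cultures, and the other members lie between -0.42 and 1.28.

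The mouse numbers fall into a series from 19 to 29 and a series from 35 to 39, which the labels do not call a batch. Tmc3 averaged 0.7097 CPM (untreated Fl/+), 37.1 (Fl/+ 4-OHT) and 50.6 (Fl/Fl 4-OHT) in the lower series, with 3 libraries a group, and 0.358, 40.6 and 78.0 CPM in the higher series, with 2. Tmc6 averaged 17.2, 19.6 and 28.1 CPM in the lower series and 13.9, 16.4 and 30.2 CPM in the higher. The order of the groups was the same in both series for these 2 genes and not for Tmc4 and Tmc7. Tmc4 averaged 5.27 CPM in Fl/+ and 8.25 in Fl/Fl 4-OHT libraries of the lower series against 4.84 and 4.65 in the higher. Tmc7 averaged 17.8 CPM in untreated and 19.99 in Fl/+ 4-OHT libraries of the lower series against 21.6 and 21.2 in the higher, and was lowest in Fl/Fl 4-OHT in both (14.8 and 15.7). No test was run within a series.

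In bulk cultures, fewer cells of a type and less RNA per cell cannot be told apart. The summed level of the 8 oligodendrocyte markers was 216 to 712 CPM in untreated Fl/+, 570 to 1133 in Fl/+ 4-OHT and 696 to 2895 in Fl/Fl 4-OHT libraries. The medians were 464, 832 and 780 CPM, so the summed level was not higher in the median Fl/Fl library than in the median Fl/+ 4-OHT library. This sum leans on Cnp, which averaged 397, 447 and 534 CPM in the 3 groups. The median log2 fold change of the 8 markers was 2.41 in the Fl/+ pair and 3.56 for Fl/Fl 4-OHT against untreated cultures. Of these markers 6 were called higher after 4-OHT in Fl/+, where 7.34% of all genes were, and 7 in Fl/Fl 4-OHT against untreated cultures, where 15.7% were. One of the 8 tested, Mog, averaged 0.0214 CPM in untreated cultures and passed the filter through the treated groups. The myelin gene Mbp averaged 16.3, 118 and 294 CPM, the last of which rests on mouse 37 at 1013 CPM. Without the highest library of each group (mice 26, 36 and 37) these means were 9.16, 76.6 and 114 CPM. The lineage factor Sox10 averaged 25.1, 96.4 and 81.9 CPM in the 3 groups. Their part in the levels of Tmc3 was not tested. Microglia and leukocyte markers summed to 1.91 CPM at most. Between Fl/Fl 4-OHT and untreated cultures, where 15.1% of all genes were called lower, 5 of 6 neuron markers, 5 of 10 neural stem cell markers and 3 of 6 astrocyte markers were lower, and 1 astrocyte marker was higher. Of the 4 ependymal markers 3 could be tested and were called higher there, 1 of which, Ccdc153 (0.245 CPM in untreated and 1.32 in Fl/Fl 4-OHT cultures on average), passed the filter through the group in which it was higher. Between the treated groups, where 16.8% of all genes were called higher and 15% lower, 4 of 10 neural stem cell and 2 of 6 neuron markers were lower. There 1 of 3 tested ependymal and 1 of 8 oligodendrocyte markers were higher, the latter list with a median log2 fold change of 1.10. In the Fl/+ pair, where 6.45% of all genes were lower, 3 of 6 astrocyte and 3 of 10 neural stem cell markers were lower and 1 of each list was higher. The astrocyte marker Gfap averaged 57.7, 548 and 757 CPM in the 3 groups, and 45.2, 365 and 380.3 CPM without the highest library of each (mice 19, 36 and 37, the last at 2264 CPM). Its part in the levels of Tmc3 was also not tested.

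The genes around Tmc3 did not share its size of change. Of the 6 other protein-coding genes within 500 kb, 4 passed the filter in a comparison, and Il16 and Cfap161 did not, with at most 8 counts in a library. Stard5, a lipid-transfer gene that begins 6.345 kb after the end of Tmc3 on the same strand, averaged 15.8 ± 2.63 CPM in untreated and 22.6 ± 3.23 in Fl/+ 4-OHT libraries and rose by 0.52 on the log2 scale (SE 0.146, edgeR adjusted p = 0.0367). It was lower in Fl/Fl than in Fl/+ 4-OHT cultures (17.8 ± 0.485 CPM, log2 fold change -0.33, adjusted p = 0.0307). Tlnrd1, a talin-like actin-binding gene, was also lower there (-0.58, SE 0.151, adjusted p = 0.0138). It was not called in the Fl/+ pair (0.42, adjusted p = 0.0961), but with the mouse as a block it was (0.41, adjusted p = 0.0451).

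Cemip, which takes part in hyaluronan breakdown, averaged 38.8 ± 17.3 CPM in Fl/Fl 4-OHT against 11.2 ± 4.83 in Fl/+ 4-OHT and 11.4 ± 8.06 in untreated libraries. It was higher by 1.801 (SE 0.371, adjusted p = 0.00435) and 1.79 (SE 0.482, adjusted p = 0.0162) on the log2 scale. In the Fl/+ pair, where Tmc3 was higher by 6.07, Cemip stood at -0.01 (SE 0.497). Mesd, a chaperone of LDL-receptor relatives, was not called in any of the 3 comparisons (edgeR adjusted p from 0.0573 to 0.583; lowest exact permutation p = 0.0397, between the treated groups). The antisense gene Gm16638, which overlaps Tmc3 on the other strand and was added after its values were seen, stayed between 1.63 and 2.28 CPM as group means and was not called (edgeR adjusted p from 0.0923 to 0.369; lowest exact permutation p = 0.0238, for Fl/Fl 4-OHT against untreated).

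**Figure D4:**
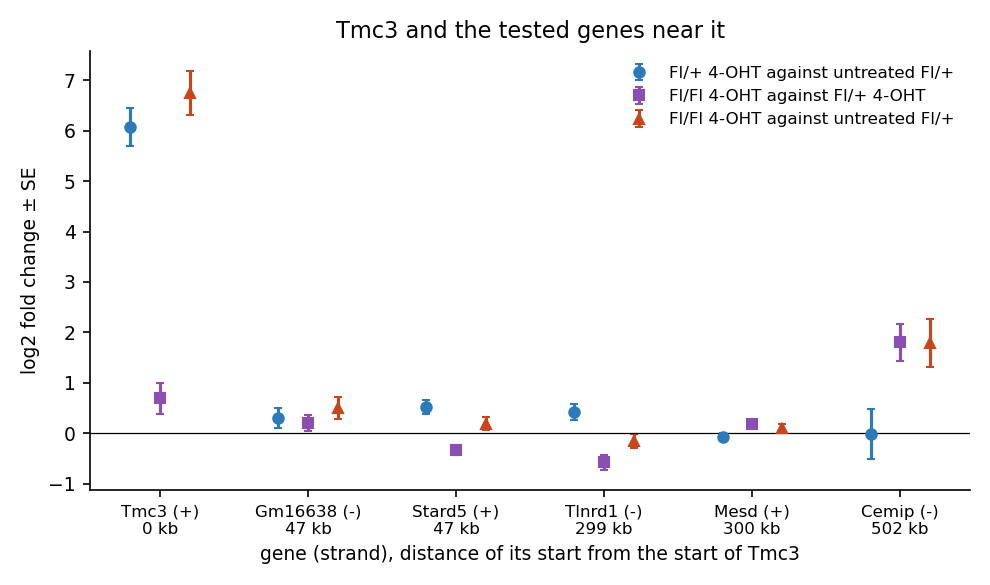
Fitted log2 fold change ± SE of Tmc3, the antisense gene Gm16638 and the 4 tested protein-coding genes within 500 kb, in order of the distance of their start from that of Tmc3, in the 3 comparisons. Stard5 stands at 0.52 and Cemip at -0.01 in the Fl/+ pair, where Tmc3 stands at 6.07.

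The hair cell partners of Tmc1 and Tmc2 were partly present without them. Of the 10 listed, 5 could be tested between the treated groups, 5 in the Fl/+ pair and 4 between Fl/Fl 4-OHT and untreated cultures, with median log2 fold changes of 0.07, 0.07 and -0.23. Over all genes tested these medians were 0.02, -0.01 and 0.00. Pcdh15, a tip-link protocadherin, was well expressed at 66.0 to 84.5 CPM as group means and was not called, while Lhfpl5, a subunit that couples the tip link to the channel, had at most 1 count in a library. None of 5 was called between the treated groups, where 31.7% of all genes were. Cdh23, the other tip-link cadherin, was higher after 4-OHT in Fl/+ (0.597 ± 0.142 against 0.218 ± 0.0726 CPM, log2 fold change 1.44, adjusted p = 0.0108), but with at most 8 counts in an untreated library it passed the filter through the group in which it was higher. Cib2, a calcium-binding subunit, was lower in Fl/Fl 4-OHT than in untreated cultures (12.6 ± 1.38 against 18.2 ± 3.39 CPM, -0.52, adjusted p = 0.0218). With the mouse as a block Cib2 and Tmie were also called lower in the Fl/+ pair (-0.61, adjusted p = 0.00483, and -0.71, adjusted p = 0.0394), and neither was without it (adjusted p = 0.0664 and 0.198).

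Of the 13 TMEM16 and TMEM63 relatives, 9 were tested between the treated groups, with 1 higher and 1 lower and a median log2 fold change of -0.23. Tmem63c, an osmosensitive channel relative, stood at 0.143 ± 0.0992 CPM in Fl/+ and 0.746 ± 0.160 in Fl/Fl 4-OHT libraries and rose by 2.38 on the log2 scale (SE 0.409, adjusted p = 0.00164). With at most 7 counts in a Fl/+ 4-OHT library, Tmem63c passed the filter through the group in which it was higher, and so this p is no support on its own. The scramblase Ano6, well above the filter, fell by 0.35 on the log2 scale (adjusted p = 0.0120). In the Fl/+ pair 2 of 8 were higher and none lower, with a median of 0.16. These were Ano1, the calcium-activated chloride channel, at 1.08 ± 0.456 against 0.150 ± 0.112 CPM (2.81, adjusted p = 0.00255), and Ano3, at 18.8 against 9.73 CPM (0.96, adjusted p = 0.0143). Ano1 had at most 10 counts in an untreated library and passed the filter through the treated group, both here and in the comparison with Fl/Fl 4-OHT cultures. With the mouse as a block Tmem63a was also called higher there (0.47, adjusted p = 0.0318). Against untreated cultures 4 of 9 were higher in Fl/Fl 4-OHT: Ano1, Ano3, Tmem63a and Tmem63c, with a median of 0.09 over the 9. The low counts of Tmem63c (at most 8 in an untreated library) apply here too. Of all genes tested, 16.8% were called higher and 15% lower between the treated groups, 7.34% higher in the Fl/+ pair and 15.7% higher against untreated cultures.

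The 8 genes listed as other mechanosensitive channels were all tested. Their medians were -0.15 between the treated groups, -0.14 in the Fl/+ pair and -0.07 between Fl/Fl 4-OHT and untreated cultures. Of these, Piezo1, a cation channel opened by membrane tension, was the one called in the Fl/+ pair, where 13.8% of all genes were, so 1 of 8 is near the share of all genes. It averaged 11.9 ± 4.51 CPM in untreated and 33.7 ± 4.66 in Fl/+ 4-OHT libraries (log2 fold change 1.504, SE 0.239, adjusted p = 0.00270), with no overlap. In Fl/Fl 4-OHT libraries it averaged 24.0 ± 8.80 CPM, which was higher than in untreated cultures (1.02, adjusted p = 0.0210) and not called against Fl/+ 4-OHT (-0.48, adjusted p = 0.0913). Piezo2 averaged 13.1, 10.2 and 9.57 CPM in the 3 groups and was called in the Fl/+ pair with the mouse as a block alone (-0.36, adjusted p = 0.0400), as was Tmem87a (-0.29, adjusted p = 0.0239). Between the treated groups Pkd2, the polycystin-2 channel, and Tmem120a were lower (-0.22, adjusted p = 0.0253, and -0.71, adjusted p = 0.00503), and Tmem120a was also lower than in untreated cultures (-0.67, adjusted p = 0.00713). These counts, 2 of 8 in either comparison of Fl/Fl cultures, stand beside 31.7% and 30.7% of all genes.

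The 5 genes whose levels followed Tmc3 most closely over the 15 libraries, by Pearson's r of log2(CPM + 0.5) among 13333 genes averaging at least 1 CPM, were Fblim1 (0.977), Synpo (0.970), Bdkrb2 (0.968), Iffo2 (0.967) and Fam217b (0.964). They were picked as the highest, and the untreated and treated libraries form clusters that carry most of each r. After the group means were taken out, r was 0.709, 0.623, 0.587, 0.680 and 0.504. Fblim1, a filamin-binding adhesion protein, averaged 1.19 ± 0.555 CPM in untreated Fl/+, 15.9 ± 4.59 in Fl/+ 4-OHT and 14.4 ± 5.17 in Fl/Fl 4-OHT libraries. Synpo, the actin-associated synaptopodin, averaged 12.6 ± 2.76, 63.2 ± 8.56 and 81.6 ± 40.9 CPM. Bdkrb2, the bradykinin B2 receptor, averaged 0.393 ± 0.0679, 7.73 ± 2.99 and 10.1 ± 6.84 CPM, and like Tmc3 was low in all untreated libraries.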

How the data were processed

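Poly(A) RNA of 15 cultures was sequenced as stranded single-end libraries. The authors deposited raw counts per gene, made with bcl2fastq 1.8.4, STAR 2.5.4b on GRCm38 with Ensembl genes and featureCounts 1.5.0 on uniquely mapped reads by strand, per the labels and methods. From these counts, each comparison of 5 against 5 libraries was fitted over all genes with the quasi-likelihood F test of edgeR 4.0.16 in R 4.3.3 (filterByExpr with a minimum count of 10, TMM scaling, Benjamini-Hochberg adjusted p under 0.05, no covariate), a script tested on simulated data. Levels are CPM after TMM scaling of all 15 libraries, with SD over n = 5. Single members were also compared on the log2(CPM + 0.5) scale by permuting the libraries exactly over 252 arrangements (two-sided). Exon lengths and coordinates are from GENCODE (GRCm38), and promoters from RefSeq.

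Groups follow the labels, and nothing says that the mice of a group were from separate litters. The 2 cultures of each Fl/+ mouse deviated together (r of deviations from the group means 0.153 to 0.634 over 14821 genes; other pairs -0.559 to 0.350), so the mouse number pairs them. The Fl/+ pair called 2044 genes, and 3809 with the mouse as a block. DESeq2 1.42.0 was an alternative. The named genes are the members, Trrap, 4 lists of partners and related channels (named where called or defining), tested genes within 500 kb of Tmc3 and the 5 genes most correlated with it. The members and lists were chosen with earlier results of these data known. Counting limits cover counting error only. A planned protein comparison was not run.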

Additional observations from a re-analysis of the deposited data

Results flagged for a closer look

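A library far from the other 4 of its group was found in 2 of 18 groups of Tmc members examined by Dixon's ratio, which chance gives in about 1 of 20. Tmc6 in the Fl/+ 4-OHT library of mouse 24 was at 25.3 CPM, above the others at 15.8 to 17.0. Tmc7 in the Fl/Fl 4-OHT library of mouse 27 was at 13.1 CPM, below the others at 15.5 to 15.9.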

How the results depend on the processing

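With the mouse as a replicate block the Fl/+ pair called 3809 genes in place of 2044, and 3170 with mice 19 to 29 against 35 to 39 as a covariate (added after the data were seen). No paired fit was possible for the other comparisons because the Fl/Fl mice are different mice. Leaving out 1 library at a time gave 1271 to 2522 genes there, the fewest without the 4-OHT libraries of mice 19 (1271) and 35 (1311), 3772 to 4734 (4773 in all) between the treated groups and 3700 to 4735 (4620 in all) for Fl/Fl 4-OHT against untreated cultures. It gave 2 to 3 Tmc genes called between the treated groups and 2 to 4 against untreated cultures. The latter count, 3 as reported, was 5 with DESeq2, 5 with all 15 libraries in 1 fit, and 1 with at least 10 counts in every library, a filter that Tmc3, Tmc5 and Tmc8 cannot pass. Tmc8 lost its call there with no filter (adjusted p = 0.0570). Tmc4 and Tmc7 gained theirs with DESeq2 (adjusted p = 0.0256 and 0.0469) and in the single fit (0.0230 and 0.0365), and Tmc4 also with library size alone (0.0396) and with the covariate of mouse numbers (0.0381). Tmc5 changed sign without single libraries (-0.17 to 0.28; -0.16 without untreated mouse 35, -0.17 without 36, -0.00 without Fl/Fl 28 and -0.12 without 29). Tmc6 between the treated groups stayed at 0.56 to 0.80 and Tmc7 at -0.47 to -0.37 over their 19 alternatives, each past the threshold. With library size alone the share of called genes that were higher went from 53.2% to 66.2% in the Fl/+ pair, from 51.02% to 66.3% against untreated and from 52.8% to 59.3% between the treated groups.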

Other observations

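Myo7a, a motor of hair cell bundles and one of the listed partners, split mainly by mouse number. In mice 19 to 29 its libraries held 0.0362 to 0.732 CPM (untreated Fl/+), 0.237 to 0.886 (Fl/+ 4-OHT) and 0.426 to 0.963 (Fl/Fl 4-OHT). In mice 35 to 39 they held 16.4 to 20.1, 18.4 to 19.5 and 29.2 to 36.2 CPM, so the Fl/Fl libraries of this series were also above its Fl/+ libraries. Both cultures of each Fl/+ mouse fell on the same side. The split was noticed in the data and was not tested. Tmc5 was also lower in untreated mice 35 and 36 (2 counts each) than in untreated mice 19, 24 and 26 (11 to 12), and in Fl/Fl mice 37 and 39 (5 and 4 counts) than in Fl/Fl mice 27, 28 and 29 (10, 10 and 13). Its Fl/+ 4-OHT libraries overlapped between the series (3 to 16 against 1 to 5).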
